A study of Mus musculus with 9 samples.

Results

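The 9 genes described here are Cpt1a together with genes known to respond to fasting (Pdk4, Angptl4, Acadm, Ppara and Ppargc1a) and to glucocorticoids (Fkbp5, Tsc22d3 and Zbtb16). They were taken by symbol from a table of 18094 genes, and each symbol matched a single row. All 9 passed the filter on low counts that left 15186 genes to test. RNA was sequenced from the uterus of 9 female mice aged 13 weeks, 3 libraries per group. Tamoxifen+primidone mice had received tamoxifen at 1 mg/kg on days 1 to 5 after birth. They were then given primidone daily at 2 mg/kg over 3 weeks that began at week 10. Tamoxifen mice had received the same neonatal tamoxifen without primidone, and their treatment is labelled tamoxifen+vesicle. Control mice had received neither drug, only a treatment labelled vesicle. In both labels vesicle is taken to mean vehicle. Tamoxifen is a selective estrogen receptor modulator, and newborn mice given it serve as a model of adenomyosis, the ingrowth of endometrium into uterine muscle. Primidone is an anticonvulsant that the body converts in part to phenobarbital. The sources used here give no strain, estrous stage, feeding state or hour of death.

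Fasting raises free fatty acids, which activate the nuclear receptor PPAR alpha, while the adrenal gland releases glucocorticoids that act through the glucocorticoid receptor. In liver, muscle and heart both signals raise genes that move cells towards burning fat. CPT1A places long-chain fatty acids on carnitine at the outer mitochondrial membrane, the step that controls their entry for oxidation. In the uterus, progesterone can act on some of the same genes as glucocorticoids, because the receptors of both hormones bind like DNA elements.

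The promoters of Cpt1a and Fkbp5 are shown because Cpt1a set its groups apart most clearly among the 9 genes and Fkbp5 is the textbook glucocorticoid target. Both are RefSeq windows of assembly GRCm38.p6, from 250 bases before to 50 bases after the annotated start and written 5′ to 3′ on the gene's own strand. The Cpt1a window lies on the plus strand at chr19:3323051-3323350 and the Fkbp5 window on the minus strand at chr17:28486100-28486399. Capitals mark matches to CCAAT, to GGGCGG and to CACGTG, on either strand.

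Cpt1a: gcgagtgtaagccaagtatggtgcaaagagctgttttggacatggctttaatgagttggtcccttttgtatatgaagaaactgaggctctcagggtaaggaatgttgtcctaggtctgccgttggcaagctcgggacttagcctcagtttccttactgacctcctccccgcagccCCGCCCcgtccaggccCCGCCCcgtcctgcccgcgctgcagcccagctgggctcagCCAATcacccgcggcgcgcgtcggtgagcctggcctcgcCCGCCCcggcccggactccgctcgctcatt

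Fkbp5: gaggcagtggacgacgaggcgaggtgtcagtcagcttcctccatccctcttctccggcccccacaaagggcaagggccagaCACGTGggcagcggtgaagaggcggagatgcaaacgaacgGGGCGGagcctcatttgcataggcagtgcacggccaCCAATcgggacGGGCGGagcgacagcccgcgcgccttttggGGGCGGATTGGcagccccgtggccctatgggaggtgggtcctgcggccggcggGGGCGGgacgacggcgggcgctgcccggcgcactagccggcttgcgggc

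The Cpt1a window held a CCAAT box beginning 19 bases before the start and GC boxes beginning 75 and 59 bases before it and at base 21 after it, with a GC content of 62.3%. The Fkbp5 window held 2 CCAAT boxes and 4 GC boxes, with a GC content of 70.7%. Its E-box, CACGTG, is the letter sequence that the clock proteins CLOCK and BMAL1 bind, and it began 169 bases before the start. Among all 32851 RefSeq promoter windows the median GC content was 52.7%, a CCAAT box occurred in 37.4%, a GC box in 35.7% and an E-box in 7.15%. Windows were found for 7 of the 9 genes, with Angptl4 and Zbtb16 unmatched. A PPAR element, spelt as a pair of AGGNCA with a single base between, occurred in 0.381% of all windows, and a glucocorticoid element, spelt as GNACA and TGTNC around NNN, in 0.475%. Neither was found in the windows of the 7 matched genes, nor were the D-box letters TTATGTAA and TTACGTAA, which occurred in 0.938% and 0.119% of all windows. These are letter matches on both strands, with no motif overlapping another in the windows printed. Spellings as rare as the PPAR, glucocorticoid and D-box letters would seldom occur in so few windows, so their absence says little. Sequence outside the windows was not searched.

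Libraries held from 36393120 to 39958443 counts. Values per library are CPM, counts scaled to TMM-adjusted library sizes. Levels of different genes are compared in the FPKM that the authors deposited. These divide by gene length and by library size, but not by the TMM-adjusted sizes used for CPM. By mean FPKM over the 9 libraries, Acadm (38.5) and Cpt1a (36.2) stood highest, with overlapping libraries. Angptl4 followed with 22, then Tsc22d3 with 11.9, Pdk4 with 2.79, Fkbp5 with 2.17 and Zbtb16 with 0.629. Ppargc1a (0.292) and Ppara (0.242) were lowest, and their libraries overlapped. So did those of Pdk4 with Fkbp5 and of Zbtb16 with Ppargc1a, while the other neighbours in this order stood apart. Mean counts per library ran from 96.6 for Ppara to 7005 for Cpt1a, so the low genes carry more counting error. In whole tissue, fewer cells of a type and less RNA per cell cannot be told apart.

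The genes were chosen by values from these same libraries, namely the differences in level between the groups, so their differences are given as a description, with no test drawn from them. Differences are log2 fold changes ± SE from 1 edgeR fit of all 9 libraries. The 2 comparisons with control share the control libraries, and both comparisons of tamoxifen+primidone share its libraries.

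Cpt1a had 144, 139 and 135 CPM in tamoxifen+primidone uteri, 173, 151 and 164 CPM in tamoxifen uteri and 258, 261 and 225 CPM in control uteri. Every library of tamoxifen+primidone lay below every library of tamoxifen, and every tamoxifen library below every control library. Group means were 139 ± 4.78 CPM with tamoxifen+primidone, 163 ± 11.2 CPM with tamoxifen and 248 ± 19.8 CPM in control (SD, n = 3 each). Against control, Cpt1a was 34.5% lower in tamoxifen uteri, a log2 difference of −0.61 ± 0.09, and 43.9% lower in tamoxifen+primidone uteri, a log2 difference of −0.83 ± 0.09. Between tamoxifen+primidone and tamoxifen the log2 difference was −0.22 ± 0.09. That smaller step depended on the scale. For this comparison the median over all genes fitted was 0.07 on the log2(FPKM + 1) scale, against 0.02 in the edgeR fit. In FPKM, tamoxifen+primidone libraries had 30, 28.7 and 27.2 and tamoxifen libraries 33.5, 29.8 and 31.9, so the ranges overlapped, and the log2 difference was −0.14 on the log2(FPKM + 1) scale. The ranges of both tamoxifen groups stayed clear of the control libraries, at 50, 51.6 and 43.4 FPKM.

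**Figure D1:**
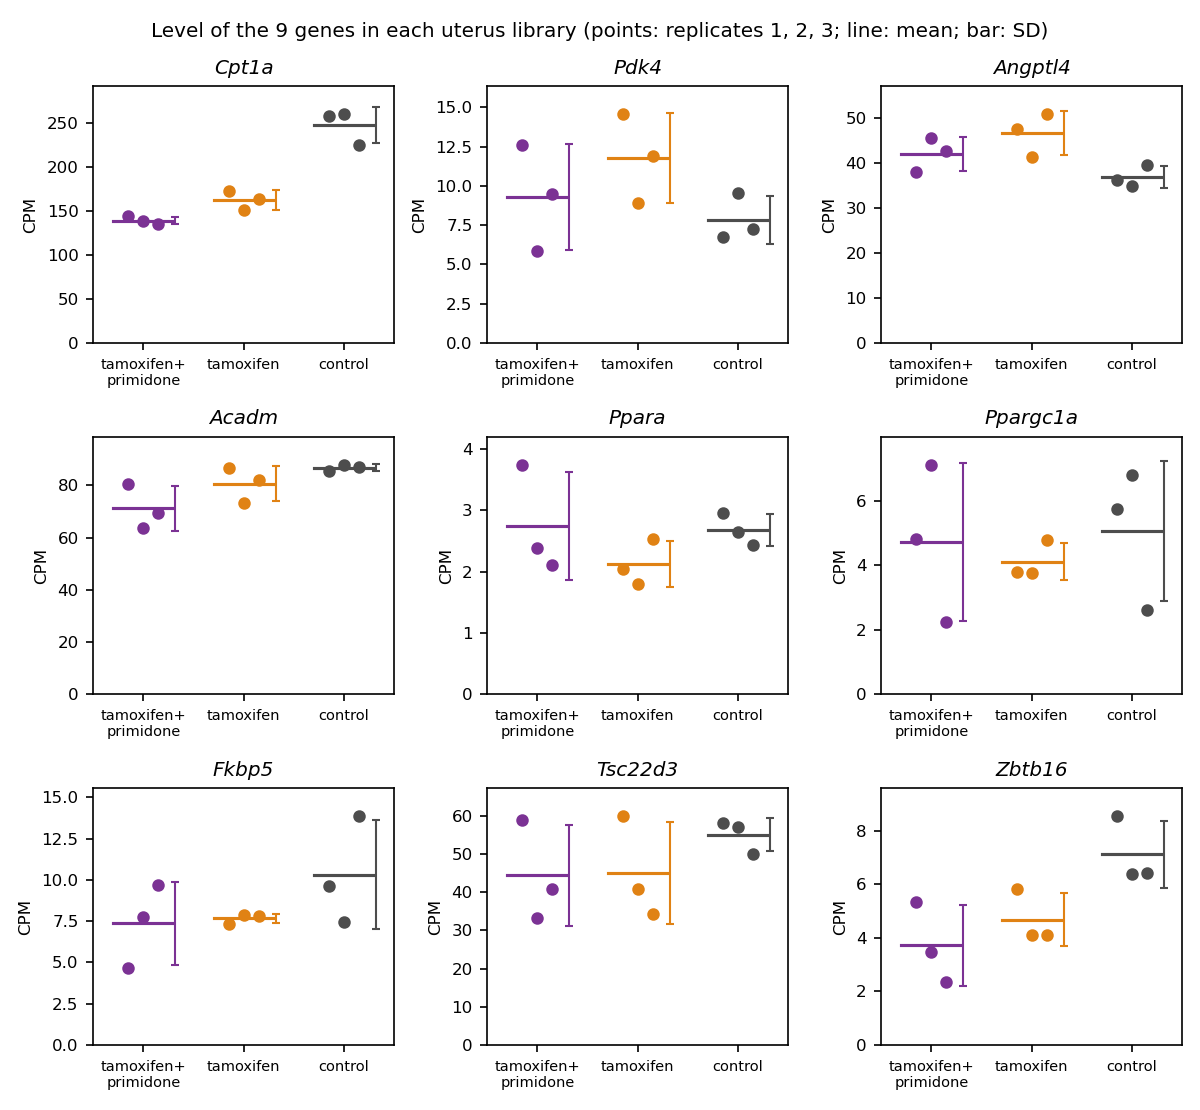
Level in CPM (linear axis from 0) of each of the 9 genes in every uterus library, with tamoxifen+primidone, tamoxifen and control from left to right. Points are libraries 1, 2 and 3, lines are group means and bars are SD (n = 3); Cpt1a shows 3 separate ranges, 135 to 144, 151 to 173 and 225 to 261 CPM.

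By the same fit, 1 of the 9 genes, Cpt1a, passed an adjusted p of 0.05 in tamoxifen against control, where 1.53% of all tested genes passed (0.573% higher and 0.961% lower). The same gene alone passed in tamoxifen+primidone against control, where 5.35% of all tested genes passed (2.14% higher and 3.21% lower). Between tamoxifen+primidone and tamoxifen edgeR called 0 of the 9, with 0.0132% of all genes passing. DESeq2 and limma-voom also called 0, and 1 of the 9, Cpt1a, had an unadjusted p under 0.05. An unadjusted edgeR p under 0.05 was common among the 15186 tested genes. At least 2601 had one in tamoxifen against control, 2067 in tamoxifen+primidone against tamoxifen and 3364 in tamoxifen+primidone against control. Such counts in the lists below are to be read beside these. The shares that passed the adjusted threshold depend on single libraries. Over all genes, tamoxifen against control gave 233 calls, 22 without control replicate 1 and 439 without tamoxifen+primidone replicate 1. Tamoxifen+primidone gave 812 against control, 122 and 587 without those libraries, and 2 against tamoxifen, 0 and 85 without them. Nothing is read from these counts, because the genes were chosen with them known. Without control replicate 1 the tamoxifen difference of Cpt1a was −0.58 ± 0.10 and its adjusted p in edgeR was 0.0779. Without tamoxifen+primidone replicate 1, Zbtb16 passed as well in tamoxifen+primidone against control.

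Acadm encodes the medium-chain acyl-CoA dehydrogenase of mitochondrial beta oxidation, downstream of the carnitine step. It had 80.7, 63.6 and 69.4 CPM in tamoxifen+primidone, 86.7, 73.3 and 82.0 CPM in tamoxifen and 85.4, 88.0 and 87.0 CPM in control uteri. Tamoxifen and control libraries overlapped, with a log2 difference of −0.11 ± 0.10. All tamoxifen+primidone libraries lay below control, with a log2 difference of −0.28 ± 0.10, although in FPKM the highest tamoxifen+primidone library (41.1) was above the lowest control library (40.4).

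Pdk4 encodes a kinase that switches off pyruvate dehydrogenase and so spares glucose, and it is a classic target of both PPARs and glucocorticoids. Its level was 12.6, 5.85 and 9.46 CPM in tamoxifen+primidone, 14.6, 8.88 and 11.9 CPM in tamoxifen and 6.72, 9.53 and 7.23 CPM in control uteri. The groups overlapped in every comparison. The log2 difference of tamoxifen from control was 0.60 ± 0.28, opposite in sign to that of Cpt1a, and that of tamoxifen+primidone from control was 0.25 ± 0.28.

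Angptl4 encodes a secreted inhibitor of lipoprotein lipase that fasting raises through PPARs and glucocorticoids. It had 38.0, 45.5 and 42.6 CPM in tamoxifen+primidone, 47.5, 41.4 and 51.0 CPM in tamoxifen and 36.3, 34.9 and 39.6 CPM in control uteri. Every tamoxifen library was above every control library, with a log2 difference of 0.34 ± 0.11. Tamoxifen+primidone overlapped with both, at 0.19 ± 0.11 from control and −0.15 ± 0.11 from tamoxifen. Fat cells express Angptl4 strongly, and its highest library in each tamoxifen group was also the one with the highest summed adipocyte markers (607 CPM in tamoxifen+primidone replicate 2 and 518 CPM in tamoxifen replicate 3). The part of these markers in its level was not tested; without tamoxifen replicate 3 the log2 difference of tamoxifen from control was 0.27 ± 0.11.

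The regulators Ppara and Ppargc1a were scarce in the uterus. Other regulators of such genes were not, with Ppard at 11 FPKM and the glucocorticoid receptor gene Nr3c1 at 8.11 FPKM on average. Ppara, which encodes the fatty acid receptor itself, had 3.75, 2.38 and 2.11 CPM in tamoxifen+primidone, 2.05, 1.79 and 2.53 CPM in tamoxifen and 2.95, 2.65 and 2.43 CPM in control uteri. Ppargc1a, whose product PGC-1 alpha is a coactivator of PPARs and of mitochondrial genes, had 4.81, 7.14 and 2.24 CPM in tamoxifen+primidone, 3.80, 3.78 and 4.78 CPM in tamoxifen and 5.75, 6.83 and 2.62 CPM in control uteri. All groups overlapped for both genes. Against control, tamoxifen differed by −0.33 ± 0.29 for Ppara and −0.30 ± 0.43 for Ppargc1a, and tamoxifen+primidone by 0.04 ± 0.29 for Ppara and −0.10 ± 0.43 for Ppargc1a, all on the log2 scale.

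Fkbp5 encodes a cochaperone that lowers the affinity of the glucocorticoid receptor for its hormone and is itself induced by the receptor. Its level was 4.68, 7.73 and 9.68 CPM in tamoxifen+primidone, 7.34, 7.86 and 7.82 CPM in tamoxifen and 9.62, 7.44 and 13.9 CPM in control uteri. Tamoxifen libraries were close to each other, while the other two groups were spread wide and overlapped with them. Log2 differences from control were −0.49 ± 0.28 for tamoxifen+primidone and −0.43 ± 0.28 for tamoxifen.

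Tsc22d3 encodes GILZ, a leucine zipper protein that carries part of the anti-inflammatory action of glucocorticoids. It had 58.9, 33.3 and 40.8 CPM in tamoxifen+primidone, 60.0, 40.7 and 34.3 CPM in tamoxifen and 58.0, 56.9 and 50 CPM in control uteri. Replicate 1 of each tamoxifen group was above all control libraries and the other replicates were below them. The log2 differences from control, −0.31 ± 0.24 with tamoxifen+primidone and −0.29 ± 0.24 with tamoxifen, average over that split.

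Zbtb16 encodes PLZF, a zinc finger repressor that glucocorticoids and, in endometrial stroma, progesterone induce. It had 5.35, 3.47 and 2.36 CPM in tamoxifen+primidone, 5.83, 4.11 and 4.11 CPM in tamoxifen and 8.57, 6.37 and 6.42 CPM in control uteri. All libraries of both tamoxifen groups lay below all control libraries, while those of tamoxifen+primidone and tamoxifen overlapped. Against control the log2 difference was −0.93 ± 0.30 with tamoxifen+primidone and −0.60 ± 0.30 with tamoxifen. With tamoxifen+primidone it was −1.28 without tamoxifen+primidone replicate 1 and −0.69 without tamoxifen+primidone replicate 3.

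**Figure D2:**
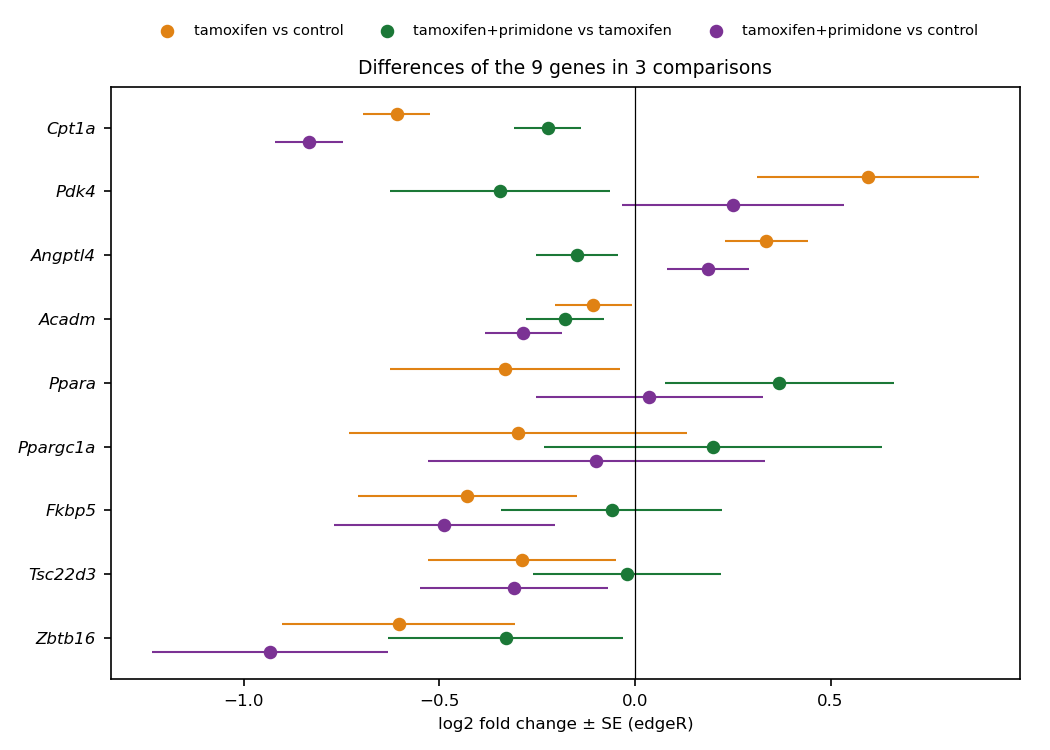
Log2 fold change ± SE (edgeR, horizontal axis) of each of the 9 genes in the 3 comparisons named in the legend. Cpt1a, Acadm, Fkbp5, Tsc22d3 and Zbtb16 lie to the left of 0 in all 3 comparisons, Pdk4 and Angptl4 lie to the right in both comparisons with control, and the bars of Ppargc1a are the widest (SE 0.43).

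Library ranges in CPM did not overlap for 1 gene that was higher and 2 that were lower in tamoxifen against control, where this held for 26.1% of all tested genes (12.7% higher and 13.4% lower). For tamoxifen+primidone against control, 0 were higher and 3 lower, against 14.1% and 15.1% of all tested genes (29.1% in all). For tamoxifen+primidone against tamoxifen, 0 were higher and 1 was lower, against 8.08% and 8.55% (16.6% in all). The median log2 difference of the 9 genes was −0.28 for tamoxifen+primidone against control, −0.15 between tamoxifen+primidone and tamoxifen, and −0.30 for tamoxifen against control, with 0.01, 0.02 and 0.00 over all tested genes. Replicate 1 was the highest library of both tamoxifen groups for Cpt1a, Pdk4, Acadm, Tsc22d3 and Zbtb16, which is 5 of the 9 genes (55.6%), and for 9.89% of all tested genes. Replicate numbers are not known to link these mice.

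None of the relatives of Cpt1a passed in edgeR. Cpt1b, the muscle form, was nearly absent at 0.214 FPKM. It differed from control by −0.69 ± 0.52 with tamoxifen+primidone (adjusted p = 0.458) and −0.40 ± 0.51 with tamoxifen (0.741). These have the sign of the Cpt1a differences but are too imprecise to compare in size. Cpt1c, the form known from brain, averaged 5.43 FPKM and differed from control by 0.25 ± 0.15 with tamoxifen (adjusted p = 0.421). Cpt2, which removes carnitine inside the mitochondrion, had 29.3, 29.7 and 27.5 CPM in tamoxifen+primidone, 37.1, 33.3 and 35.5 CPM in tamoxifen and 37.1, 39.7 and 32.9 CPM in control uteri. Its tamoxifen+primidone libraries were the lowest of the 9, but neither the difference from control (−0.34 ± 0.09, adjusted p = 0.0623) nor that from tamoxifen (−0.29 ± 0.09, adjusted p = 0.216) passed in edgeR. Slc25a20, the carrier that brings acylcarnitine across the inner membrane, had 23.2, 26.0 and 25.9 CPM in tamoxifen+primidone, 27.5, 28.0 and 22.6 CPM in tamoxifen and 34.4, 33.4 and 31.9 CPM in control uteri. Its ranges stood apart from control in both tamoxifen groups, with log2 differences of −0.41 ± 0.11 for tamoxifen+primidone (adjusted p = 0.0518) and −0.35 ± 0.11 for tamoxifen (adjusted p = 0.12), which also missed the threshold.

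In a list of 25 other genes of fatty acid oxidation and the carnitine shuttle, edgeR called 0 in tamoxifen against control, where 9 had an unadjusted p under 0.05 and DESeq2 and limma-voom also called 0. Of these 25, 20 had a negative and 5 a positive difference, with a median of −0.13 against 0.00 over all genes. Against control, 1 of the 25 fell in tamoxifen+primidone uteri, where 3.21% of all tested genes were called lower. The median of the 25 was −0.16. The called gene was Ehhadh, the bifunctional enzyme of peroxisomal beta oxidation, with 5.84, 5.45 and 6.52 CPM in tamoxifen+primidone and 10.6, 9.99 and 10.0 CPM in control uteri (log2 fold change −0.78 ± 0.18, edgeR adjusted p = 0.0357). That call was lost without any 1 of the 3 tamoxifen+primidone libraries, any 1 of the 3 control libraries or tamoxifen replicate 1, with an adjusted p of up to 0.125. Between tamoxifen+primidone and tamoxifen 0 of the 25 were called by edgeR, DESeq2 or limma-voom, and 3 had an unadjusted p under 0.05.

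**Figure D3:**
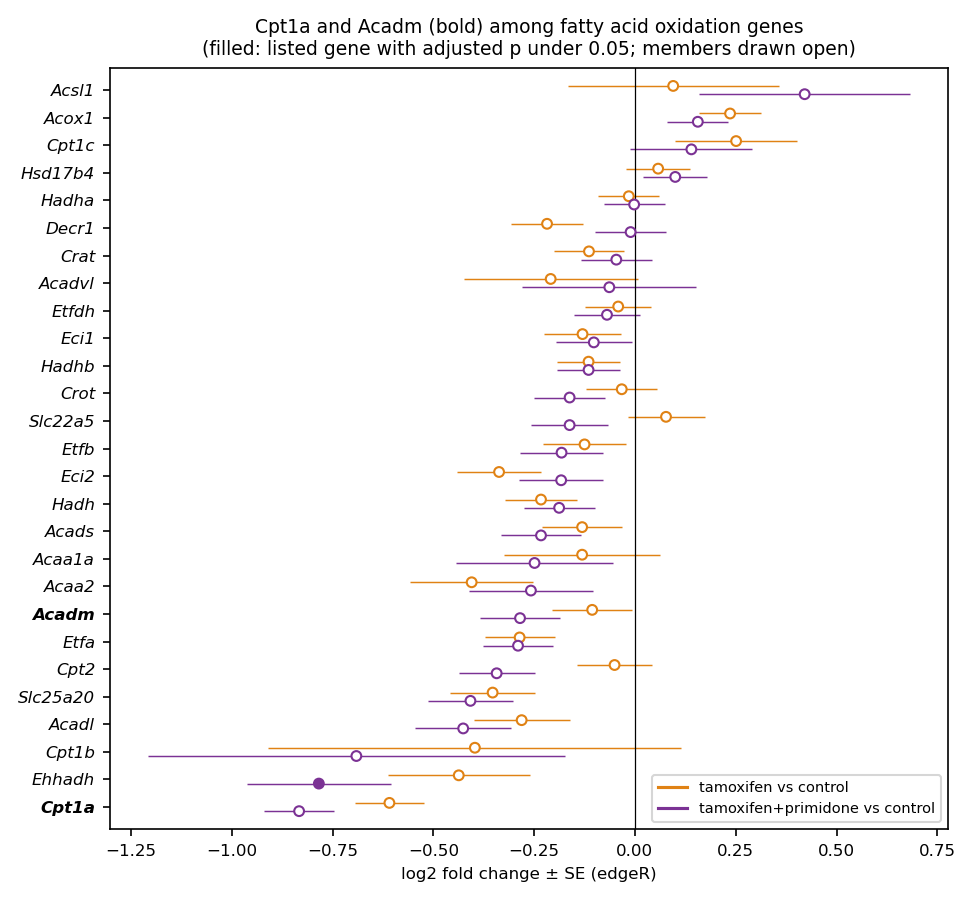
Log2 fold change ± SE (edgeR) of Cpt1a and Acadm (bold) and of 25 other genes of fatty acid oxidation and the carnitine shuttle, for tamoxifen and tamoxifen+primidone against control, ordered by the tamoxifen+primidone value. Filled points are listed genes with an adjusted p under 0.05, members being drawn open; Cpt1a is at the low end, at −0.61 and −0.83, and 20 and 21 of the 25 others lie left of 0.

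Other PPAR targets pointed both ways, more of them upward than downward. Of 20 listed, 17 were tested. In tamoxifen against control 11 differences were positive and 6 negative, with a median of 0.18 (0.00 over all genes). For tamoxifen+primidone against control 12 were positive and 5 negative, with a median of 0.56 (0.01 over all genes). Slc25a42, the mitochondrial carrier of coenzyme A, had 13.5, 11.5 and 11.7 CPM in tamoxifen+primidone, 14.3, 13.8 and 12.7 CPM in tamoxifen and 7.19, 8.35 and 5.69 CPM in control uteri. It rose in both tamoxifen+primidone (log2 fold change 0.79 ± 0.16, edgeR adjusted p = 0.0247) and tamoxifen (0.94 ± 0.16, adjusted p = 0.0252). Ucp2, an uncoupling protein of the inner mitochondrial membrane, fell in tamoxifen+primidone uteri, with 387, 420 and 415 CPM against 585, 589 and 557 CPM in control (−0.50 ± 0.11, adjusted p = 0.0308). Of all tested genes, edgeR called 1.53% in tamoxifen and 5.35% in tamoxifen+primidone against control. Neither comparison with control gave any other call in the list, and tamoxifen+primidone against tamoxifen gave 0, with 0 at an unadjusted p under 0.05. Leaving out a single library ended each of these 3 calls. Slc25a42 lost its call against control without any 1 tamoxifen library or control replicate 1 or 3 (tamoxifen), and without tamoxifen+primidone replicate 1 or 2 or control replicate 1 or 3 (tamoxifen+primidone). Ucp2 lost its call without any 1 tamoxifen+primidone or control library.

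Among 15 PPAR receptors, coactivators and partners, 1 was called, in tamoxifen+primidone against control, where 3.21% of all tested genes were called lower. Prkaa2, a catalytic subunit of the energy sensor AMPK, fell to 13.4, 14.5 and 13.0 CPM in tamoxifen+primidone uteri, against 19.5, 24.7 and 21.3 CPM in control (−0.68 ± 0.13, edgeR adjusted p = 0.0218; lost without tamoxifen+primidone replicate 3 or any 1 control library). The other PPARs did not pass. Ppard averaged 11 FPKM and differed by 0.33 ± 0.10 in tamoxifen against control (adjusted p = 0.118), with no overlap of its libraries. Pparg, the receptor of fat cells, had 3.05, 6.03 and 5.71 CPM in tamoxifen+primidone and 17.1, 8.72 and 9.66 CPM in tamoxifen uteri, apart by −1.26 ± 0.35 (adjusted p = 0.182). Ppargc1b, the relative of Ppargc1a, averaged 0.784 FPKM and differed by 0.15 ± 0.20 in tamoxifen+primidone and 0.13 ± 0.20 in tamoxifen from control.

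Pdk1, which like Pdk4 inhibits pyruvate dehydrogenase, showed another order of groups. It had 13.0, 12.9 and 10.8 CPM in tamoxifen+primidone, 22.5, 32.5 and 22.1 CPM in tamoxifen and 17.5, 21.7 and 17.1 CPM in control uteri, with no overlap between any 2 groups in CPM. In FPKM the lowest tamoxifen library and the highest control library were level, both at 3.47. The log2 differences were −1.07 ± 0.17 for tamoxifen+primidone against tamoxifen (edgeR adjusted p = 0.0679), −0.62 ± 0.17 against control (0.064) and 0.46 ± 0.17 for tamoxifen against control (0.197). Pdk2 and Pdk3 differed from control by −0.21 ± 0.18 and 0.15 ± 0.13 in tamoxifen+primidone and by −0.27 ± 0.18 and −0.03 ± 0.13 in tamoxifen. None of the 7 genes in the list of pyruvate dehydrogenase kinases and phosphatases passed in edgeR in any of the 3 comparisons. An unadjusted p under 0.05 was found for 1 of them in each comparison with control and for 2 between tamoxifen+primidone and tamoxifen.

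Beside Fkbp5, Tsc22d3 and Zbtb16, a list of 30 other genes known to respond to glucocorticoids was read. In tamoxifen against control 1 passed and it fell, where 0.961% of all tested genes were called lower. Mt2, a metallothionein, had 5.29, 6.10 and 4.52 CPM in tamoxifen and 14.3, 29.4 and 12.8 CPM in control uteri (−1.83 ± 0.36, edgeR adjusted p = 0.0432). This call was lost on leaving out tamoxifen+primidone replicate 2 or any 1 tamoxifen or control library, with an adjusted p of up to 0.132. Over the 30 genes 19 differences were positive and 11 negative, with a median of 0.12. DESeq2 called 5 of the 30 and limma-voom 0.

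In tamoxifen+primidone against control, 3 of the 30 rose and 3 fell, where 2.14% of all tested genes were called higher and 3.21% lower. Tat and Pck1, enzymes of amino acid breakdown and of glucose synthesis, rose with Klf15, a transcription factor that drives amino acid breakdown in fasting. Klf15 had 16.7, 14.4 and 12.4 CPM in tamoxifen+primidone and 8.57, 9.93 and 7.10 CPM in control uteri (0.76 ± 0.19, edgeR adjusted p = 0.0465). Pck1 had 42.5, 28.3 and 14.6 CPM in tamoxifen+primidone, against 9.43, 10.1 and 7.26 CPM in control (1.67 ± 0.40, 0.0483). Tat, a gene with few counts here, had 2.51, 1.39 and 1.18 CPM in tamoxifen+primidone, against 0.287, 0.348 and 0.135 CPM in control (2.71 ± 0.67, 0.0465). Ddit4, an inhibitor of mTORC1 that stress and glucocorticoids induce, was lower, with 59.8, 52.1 and 54.3 CPM in tamoxifen+primidone and 80.9, 95.1 and 105 CPM in control uteri (−0.76 ± 0.14, 0.017). Tiparp, a mono-ADP-ribosyltransferase, fell by 0.68 ± 0.14 (0.0233), and Zfp36, an RNA-binding protein that shortens the life of cytokine mRNAs, fell by 0.43 ± 0.10 (0.0417). The libraries of both groups stood apart for all 6 of these called genes. Over the list they stood apart for 6 higher and 9 lower genes of the 30, against 14.1% and 15.1% of all tested genes. The median over the 30 was −0.09.

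Each of these 6 calls was lost on leaving out some single library. For Ddit4 it was tamoxifen+primidone replicate 2 or control replicate 3. For Tiparp it was tamoxifen+primidone replicate 2 or 3 or control replicate 1 or 3. Tat lost its call without any 1 library of either group, and Klf15 without any 1 of them or tamoxifen replicate 2 or 3. Pck1 lost it without any 1 library other than tamoxifen+primidone replicate 3 and tamoxifen replicate 1. Zfp36 lost it without any 1 library other than tamoxifen replicate 2 and control replicate 3.

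**Figure D4:**
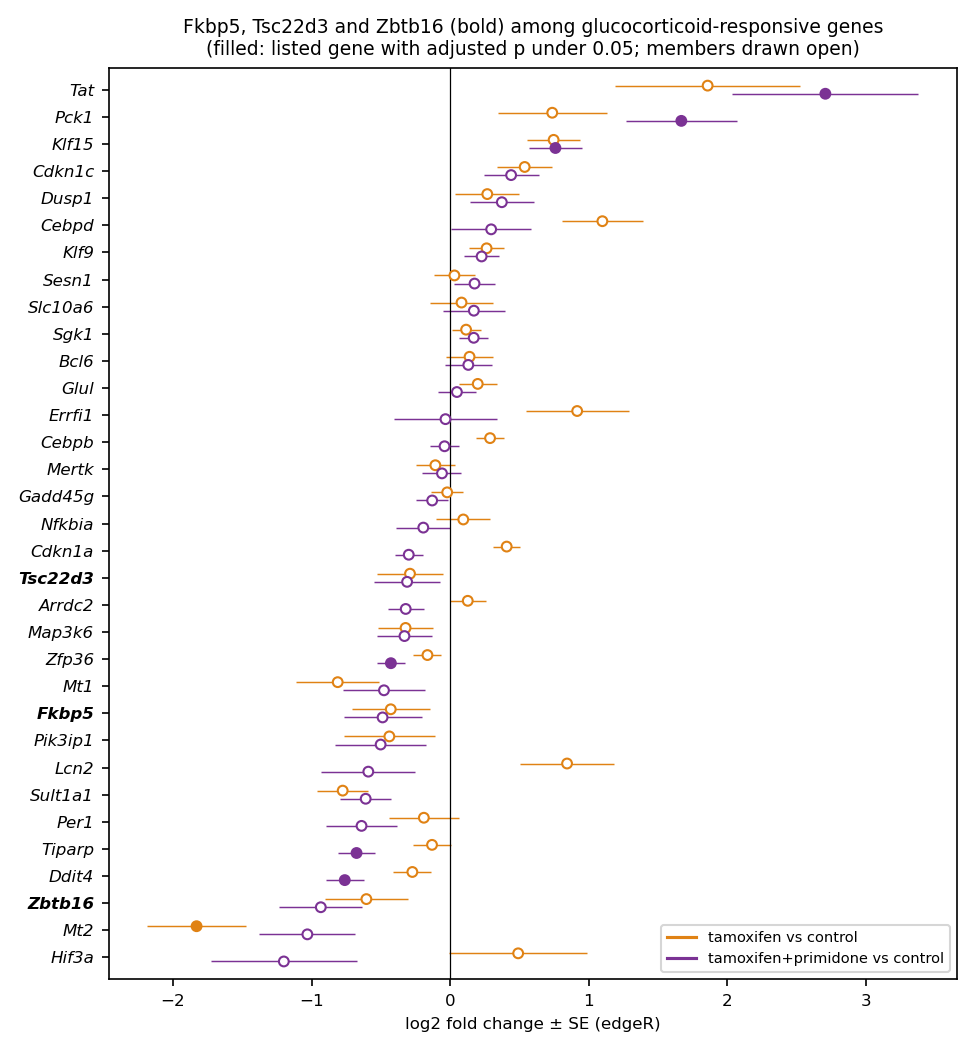
Log2 fold change ± SE (edgeR) of Fkbp5, Tsc22d3 and Zbtb16 (bold) and of 30 other glucocorticoid-responsive genes, for tamoxifen and tamoxifen+primidone against control, ordered by the tamoxifen+primidone value. Filled points are listed genes with an adjusted p under 0.05, members being drawn open; Tat, Pck1 and Klf15 are at the high end (2.71, 1.67 and 0.76), and the 3 named genes lie left of 0.

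Between tamoxifen+primidone and tamoxifen edgeR called 0 of the 30, limma-voom 0 and DESeq2 5, and 12 had an unadjusted p under 0.05. The smallest p belonged to Cdkn1a, the cell cycle inhibitor p21, with 33.6, 28.3 and 27.8 CPM in tamoxifen+primidone and 49.1, 49.1 and 48.2 CPM in tamoxifen uteri (−0.71 ± 0.10, adjusted p = 0.0518). Its libraries did not overlap, but it missed the threshold; without tamoxifen+primidone replicate 1, 1 of the 30 passed.

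The receptors themselves did not pass. Nr3c1, the glucocorticoid receptor, had 78.5, 65.5 and 65.4 CPM in tamoxifen+primidone, 63.0, 67.2 and 64.1 CPM in tamoxifen and 79.0, 74.9 and 80.8 CPM in control uteri (tamoxifen against control −0.27 ± 0.09, edgeR adjusted p = 0.144). Nr3c2, the mineralocorticoid receptor, which also binds glucocorticoids, differed from control by −0.47 ± 0.22 in tamoxifen+primidone (adjusted p = 0.238) and −0.69 ± 0.22 in tamoxifen (0.146). Hsd11b1, the enzyme that regenerates active glucocorticoid, differed from control by −0.34 ± 0.28 in tamoxifen+primidone (0.5) and −0.42 ± 0.28 in tamoxifen (0.473). Hsd11b2, which inactivates glucocorticoid, had 151, 214 and 180 CPM in tamoxifen+primidone and 265, 271 and 310 CPM in tamoxifen uteri (−0.64 ± 0.13, 0.0958). In this list of 11 the only call was Stip1, a cochaperone of the receptor's HSP90 complex, with 160, 164 and 271 CPM in tamoxifen+primidone, against 110, 103 and 125 CPM in control, which rose (0.82 ± 0.19, 0.0399). It was lost without tamoxifen replicate 1 or 3 or any 1 control library. Of all tested genes, 2.14% were called higher in that comparison.

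Pgr, the progesterone receptor, had 307, 225 and 244 CPM in tamoxifen+primidone, 237, 277 and 282 CPM in tamoxifen and 301, 293 and 302 CPM in control uteri, and differed from control by −0.21 ± 0.12 in tamoxifen+primidone (edgeR adjusted p = 0.323) and −0.17 ± 0.12 in tamoxifen (0.488). Of 12 tested genes known to respond to progesterone in the uterus, 1 rose in tamoxifen+primidone against control. In that comparison 2.14% of all tested genes were called higher. Hand2, a stromal transcription factor that restrains the epithelium, had 50.5, 43.0 and 43.7 CPM in tamoxifen+primidone and 26.9, 30.9 and 26.4 CPM in control uteri (0.70 ± 0.10, 0.00777), and it kept its call without any 1 of the 9 libraries. In tamoxifen against control 0 of the 12 passed (2 at an unadjusted p under 0.05), and in tamoxifen+primidone against tamoxifen 0 (3).

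Of 19 tested FoxO and fasting genes, edgeR called 0 in tamoxifen against control (2 at an unadjusted p under 0.05) and 0 in tamoxifen+primidone against tamoxifen (1). In tamoxifen+primidone against control 1 fell, where 3.21% of all tested genes were called lower. The listed gene that fell was Pnpla2, adipose triglyceride lipase, with 117, 129 and 108 CPM in tamoxifen+primidone and 160, 167 and 146 CPM in control uteri (−0.42 ± 0.10, adjusted p = 0.0384). Leaving out tamoxifen+primidone replicate 1 or 3, tamoxifen replicate 1 or any 1 control library removed that call. Foxo1 had overlapping libraries in all groups and differed from control by −0.17 ± 0.11 with tamoxifen+primidone and 0.06 ± 0.11 with tamoxifen.

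Several other gene groups moved with the same contrasts. Fasting genes and glucocorticoid secretion follow the time of day, and clock genes differed strongly between the groups. Of 17 clock genes, 3 rose and 11 fell in tamoxifen+primidone against control, 2 rose and 9 fell in tamoxifen against control, and 0 were called by edgeR between tamoxifen+primidone and tamoxifen (4 at an unadjusted p under 0.05). The shares called over all tested genes were 5.35%, 1.53% and 0.0132%. On leaving out each library in turn, 7 of the 14 clock gene calls held throughout with tamoxifen+primidone and 3 of the 11 with tamoxifen, among them Arntl, Per3 and Tef in both. Arntl, which encodes BMAL1, had 31.1, 37.3 and 32.3 CPM in tamoxifen+primidone, 35.4, 42.7 and 35.9 CPM in tamoxifen and 8.57, 8.41 and 10.6 CPM in control uteri, with log2 fold changes from control of 1.87 ± 0.13 in tamoxifen+primidone (adjusted p = 0.00042) and 2.05 ± 0.13 in tamoxifen (0.000248). Per3, a period gene in antiphase to it, fell by 2.10 ± 0.20 in tamoxifen+primidone (0.0015) and by 2.28 ± 0.20 in tamoxifen (0.00151). The summed level of the 17 genes was 520 to 655 CPM in tamoxifen+primidone, 605 to 702 CPM in tamoxifen and 987 to 1114 CPM in control uteri. The part of this clock difference in the levels of Cpt1a, Zbtb16 and the other genes was not tested.

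Markers of liver and of other cell types were read beside these results. Their calls are to be read beside the same shares over all tested genes. The 12 liver markers, none at 0 counts in all libraries, summed to 244 to 271 CPM in tamoxifen+primidone, 113 to 227 CPM in tamoxifen and 68.9 to 87.9 CPM in control uteri, with Alb the most abundant. Of them, 9 rose in tamoxifen+primidone and 4 in tamoxifen against control; without any 1 of the 9 libraries, Alb, Apoa1, Ahsg and Hpx kept their call in the first of these and none did in the second. An unadjusted edgeR p under 0.05 was found for 12 and 10 liver markers in these comparisons. Between tamoxifen+primidone and tamoxifen it was found for 6. Tat, Pck1 and Ehhadh are genes that liver expresses strongly. In tamoxifen+primidone against control Tat and Pck1 rose and Ehhadh fell. In tamoxifen+primidone replicates 1, 2 and 3 the liver markers summed to 244, 271 and 247 CPM, while Pck1 had 42.5, 28.3 and 14.6 CPM. The 10 adipocyte markers summed to 157 to 607 CPM in tamoxifen+primidone, 116 to 518 CPM in tamoxifen and 106 to 122 CPM in control uteri, highest in tamoxifen+primidone replicate 2 and tamoxifen replicate 3, and edgeR called 0 of them in each of the 3 comparisons (5 at an unadjusted p under 0.05 in tamoxifen and 6 in tamoxifen+primidone against control, 0 between tamoxifen+primidone and tamoxifen). Those libraries were also the highest of their groups for Angptl4 and Ppargc1a, while Ppara was highest in tamoxifen replicate 3 but not in tamoxifen+primidone replicate 2, and for the other 6 genes neither library was the highest of its group. The 10 smooth muscle markers summed to 6737 to 8417 CPM in tamoxifen+primidone, 7043 to 8505 CPM in tamoxifen and 8622 to 13622 CPM in control uteri, and 2 fell in tamoxifen+primidone against control, Actg2 (lost without tamoxifen+primidone replicate 1 or 2 or control replicate 1 or 3) and Myh11 (lost without tamoxifen+primidone replicate 2 or 3 or control replicate 1 or 3). All 10 had negative differences from control, with medians of −0.59 in tamoxifen+primidone and −0.60 in tamoxifen. The unadjusted edgeR p was under 0.05 for 7 and 6 of them, and for 0 between tamoxifen+primidone and tamoxifen. The 10 epithelial markers summed to 3632 to 4196 CPM in tamoxifen+primidone, 4819 to 5223 CPM in tamoxifen and 4744 to 5063 CPM in control uteri, and 2 fell in tamoxifen+primidone against control, Elf3, which kept its call without any 1 library, and Cldn4, which kept it only without tamoxifen replicate 3. Of these markers, 3 had an unadjusted edgeR p under 0.05 in tamoxifen against control and 8 in each other comparison. The 12 T and NK cell markers summed to 54.2 to 60.5 CPM in tamoxifen+primidone, 42 to 62.6 CPM in tamoxifen and 26.9 to 32.4 CPM in control uteri. Il2rb and Nkg7 rose in tamoxifen+primidone (Nkg7 lost without control replicate 1 or 3) and Il2rb in tamoxifen against control (lost without tamoxifen replicate 1 or 2 or any 1 control library). Among these 12, 8 had an unadjusted edgeR p under 0.05 in each comparison with control and 2 between tamoxifen+primidone and tamoxifen. The summed level of the 10 stroma markers overlapped in all groups, with 0 called in edgeR (2 at an unadjusted p under 0.05 in tamoxifen against control and 3 in each other comparison), and none of the epithelial, stromal or smooth muscle markers of the labelled tissue was at 0 counts. Skeletal muscle markers summed to 81.5 to 86.7 CPM in tamoxifen+primidone, 57.4 to 97.1 CPM in tamoxifen and 90.3 to 106 CPM in control uteri, with 0 called (1 at an unadjusted p under 0.05, in tamoxifen+primidone against control). The part of these markers in the differences above was not tested.

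Genes whose level followed that of Cpt1a were sought among 11699 tested genes with a mean of at least 5 CPM, by Pearson r of log2 CPM over the 9 libraries. Since the 3 groups differ for Cpt1a, this r mostly orders genes by the same group differences. It was above 0.9 for 115 genes and below −0.9 for 76. The highest were Fndc10 (r = 0.99), Wbp2 (0.985), Lypd6b (0.974), Arhgef18 (0.968) and Cenpb (0.963). Fndc10 had 47.2, 47.0 and 43.1 CPM in tamoxifen+primidone, 59.2, 55.8 and 59.2 CPM in tamoxifen and 95.9, 92.4 and 82.8 CPM in control uteri, the same order of groups as Cpt1a with no overlap. The lowest were Drp2 (−0.981), Atf3 (−0.979), Samd1 (−0.969), Mug1 (−0.967) and Rab11fip3 (−0.966). Atf3, a stress-induced transcription factor, had 11.1, 11.9 and 11.9 CPM in tamoxifen+primidone, 10.3, 11.5 and 11.2 CPM in tamoxifen and 6.25, 5.86 and 7.80 CPM in control uteri. With the group means taken out, r with Cpt1a was 0.881 for Fndc10, 0.388 for Arhgef18 and −0.915 for Atf3. Ranked by that measure, none of the 10 named genes was among the 5 at either end. Among the 9 genes, which were chosen by their group differences, Zbtb16 (0.831) and Acadm (0.755) were most like Cpt1a over all libraries, and Angptl4 (−0.594) least. With the group means taken out the order was another. Ppargc1a (0.629) was then highest and Fkbp5 (−0.707) lowest, with Zbtb16 at 0.57, Acadm at 0.502 and Angptl4 at −0.1.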

How the data were processed

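RNA was sequenced from 9 mouse uteri. The authors worked on build GRCm39 with HTSeq, HISAT2, DESeq2 and R 3.2.0, per the submitters' processing notes; the sources used here give no annotation, strand setting or other versions, so reads of overlapping or antisense genes cannot be told apart. The authors deposited read counts per gene, not normalized, and FPKM values, which divide by library size and gene length.

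Differences in counts were tested with edgeR 4.0.16 in R 4.3.3 by its quasi-likelihood F test (TMM, default low-count filter, robust dispersion), in 1 fit of 9 libraries with a coefficient per group. Tests were two-sided, Benjamini-Hochberg adjusted over all 15186 genes, with a threshold of 0.05; the procedure was tested on simulated data. The biological coefficient of variation was 0.2026. SE is the size of the log2 fold change over the square root of F. Alternatives used DESeq2 1.42.0 and limma 3.58.1. Nothing in the labels says more of the replicates than their number, so p-values measure the spread between these samples; replicates differed by far more than counting noise (chi-square per degree of freedom 20.24 to 81.35).

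The 9 genes and all lists were chosen with earlier results of these data known. Named genes are the members, their paralogs and partners, the listed genes that passed (otherwise those with the smallest p) and the 5 genes at each end of likeness to Cpt1a. Gene sequences came from RefSeq promoter windows of GRCm38.p6, a build other than the authors', matched by symbol.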

Additional observations from a re-analysis of the deposited data

How the results depend on the processing

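Every alternative kept the sign of the Cpt1a difference in all 3 comparisons, over a range of −0.67 to −0.55 for tamoxifen against control, −0.90 to −0.73 for tamoxifen+primidone against control and −0.28 to −0.14 for tamoxifen+primidone against tamoxifen. Differences of the 9 genes kept within 1 replicate SD in 470 recomputed values and moved beyond it in 4, on the log2(FPKM + 1) scale with and without its filter (Cpt1a −0.73, Zbtb16 −0.34, tamoxifen+primidone against control). Adding 1 shrinks the log2 difference of a gene as low as Zbtb16. Its mean FPKM was 0.472 in tamoxifen+primidone and 0.852 in control. Of the 9 genes, in tamoxifen+primidone against control, DESeq2 called 2 and the fit with a replicate block 2 instead of 1; leaving out libraries gave 1 to 2, and 0 to 1 in tamoxifen against control. Of the 25 fatty acid oxidation genes, in tamoxifen+primidone against control, DESeq2 called 5 and the replicate block 3 instead of 1, with 0 to 2 when libraries were left out. Of the 30 glucocorticoid-responsive genes, tamoxifen against control gave 5 with DESeq2, 0 with limma-voom, 2 with only the 6 libraries compared, 2 with the replicate block and 0 on unfiltered log2(FPKM + 1), instead of 1, with 0 to 2 when libraries were left out. For tamoxifen+primidone against tamoxifen the counts were 5 with DESeq2, 1 without the low-count filter and 1 with the replicate block, instead of 0, with 0 to 1 when libraries were left out. For tamoxifen+primidone against control they were 3 with limma-voom, 3 with the 6 libraries compared and 1 on unfiltered log2(FPKM + 1), instead of 6, with 0 to 5 when libraries were left out. Beyond this arithmetic for Zbtb16, the causes were not tested. The replicate block is only a check, since deviations of same-numbered libraries correlated by −0.134 to 0.177 and the numbers are not known to pair the mice. Over all genes the calls were 233, 2 and 812 (tamoxifen against control, tamoxifen+primidone against tamoxifen, tamoxifen+primidone against control), with 1112, 582 and 1876 by DESeq2, 317, 53 and 984 with the replicate block, 546, 2 and 624 with only the 6 libraries compared and 144, 0 and 700 on unfiltered log2(FPKM + 1); without the low-count filter tamoxifen+primidone against tamoxifen gave 21. Leaving out libraries gave 22 to 439, 0 to 85 and 122 to 800, the lowest without control replicate 1; without tamoxifen+primidone replicate 1 the calls were 439, 85 and 587. In tamoxifen+primidone against control the split was 325 higher and 487 lower, but 431 and 400 with upper-quartile factors and 674 and 337 on log2(FPKM + 1). Ppara and Ppargc1a, with 96.6 and 178 counts per library on average, did not pass the FPKM filter.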
